A study of Mus musculus with 2 samples.

Results

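The intergenic Tcf1 peaks that lie 1 to 10 kb from a gene's start site are the ones just beyond the promoter, where proximal enhancers are often found. They were taken from 1 list of Tcf1 ChIP-seq peaks in naïve CD8+ T cells. A peak belonged to this group when its summit was on a numbered chromosome (1 to 19), outside every annotated gene, more than 1 kb from every annotated start site and up to 10 kb from the nearest start site of a protein-coding gene (mm9, GENCODE vM1). The rule used position alone, and 1531 of the 22286 deposited peaks met it. Of these, 1299 met the 3 criteria that define a high-confidence peak, which are enrichment of 4-fold or more, a p below 1e-05 and a q below 0.05. They made up 6.93% of the 18755 high-confidence peaks on the numbered chromosomes.

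The list compared 1 WT library of 36938606 fragments with 1 control library of 27625250 fragments after removal of duplicates, so no replicate check of any peak was possible and no test below compares genotypes. Both libraries were made from splenic naïve CD8+ T cells, sorted as GFP+ TCRbeta+ CD62Lhi CD44lo-med CD8+, with an antiserum raised in rabbits against full-length Tcf1. Mice were 6 to 12 weeks old and of both sexes on the C57BL/6 background, and the labels do not say how many gave cells to each library. The control is titled Tcf1-deficient and its genotype label reads Tcf1-/-Lef1-/-, with floxed alleles, hCD2-Cre and a Cre-activated Rosa26 GFP reporter in the series description, whereas the methods describe Cd4-Cre+ Tcf7 fl/fl mice for this assay. Whether the control cells also lacked Lef1 therefore cannot be told apart from these sources. No RNA was measured here, so neither the loss of Tcf1 nor the identity of the cells was checked against expression.

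Tcf1, encoded by Tcf7, and its relative Lef1 are HMG-box proteins that bend DNA at a short core, ATCAAAG on one strand and CTTTGAT on the other. They act at promoters and at distal enhancers of T cell genes, and are known for keeping CD8+ T cells in a naïve or stem-like state. Runx and ETS proteins share many enhancers with them in T cells, and were represented here by the cores TGTGGTT and CGGAAGT. Each core was searched as exact letters on both strands within 100 bp of a summit. The windows below show strong peaks of the group with each kind of sequence, in mm9 on the plus strand, with every copy of the 3 cores in capitals.

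The 4 strongest peaks that held the Tcf/Lef core were named by their nearest coding gene:
4933403G14Rik, chr8:128191229-128191429: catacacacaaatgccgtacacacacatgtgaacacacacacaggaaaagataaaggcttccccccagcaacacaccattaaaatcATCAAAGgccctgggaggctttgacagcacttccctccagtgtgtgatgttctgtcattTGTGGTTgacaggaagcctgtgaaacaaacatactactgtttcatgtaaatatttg
Tmc8, chr11:117655626-117655826: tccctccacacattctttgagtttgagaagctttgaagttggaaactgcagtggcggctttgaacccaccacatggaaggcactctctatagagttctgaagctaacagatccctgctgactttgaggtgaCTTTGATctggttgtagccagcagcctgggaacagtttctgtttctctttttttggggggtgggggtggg
Btbd2, chr10:80121454-80121654: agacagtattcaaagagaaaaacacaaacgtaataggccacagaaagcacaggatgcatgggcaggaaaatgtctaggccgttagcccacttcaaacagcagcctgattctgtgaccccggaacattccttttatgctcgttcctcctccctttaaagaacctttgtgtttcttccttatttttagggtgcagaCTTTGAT
Slc25a37, chr14:69905133-69905333: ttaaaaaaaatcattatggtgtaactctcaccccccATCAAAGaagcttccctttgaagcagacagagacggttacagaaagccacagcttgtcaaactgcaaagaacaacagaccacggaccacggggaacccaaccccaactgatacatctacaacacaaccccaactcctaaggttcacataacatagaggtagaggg

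The core was centred 11 bp from the summit in the 4933403G14Rik window, which also held a Runx core 48 bp away on the other side. In the other windows of this set it lay farther out, at 34 bp (Tmc8), 61 bp (Slc25a37) and 97 bp (Btbd2).

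The 2 strongest peaks with none of the 3 cores were these:
Fasl, chr1:163709274-163709474: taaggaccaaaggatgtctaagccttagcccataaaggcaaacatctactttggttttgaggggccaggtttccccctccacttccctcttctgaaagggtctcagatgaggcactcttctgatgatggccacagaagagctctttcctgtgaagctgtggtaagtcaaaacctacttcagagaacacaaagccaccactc
Cd163l1, chr7:147399815-147400015: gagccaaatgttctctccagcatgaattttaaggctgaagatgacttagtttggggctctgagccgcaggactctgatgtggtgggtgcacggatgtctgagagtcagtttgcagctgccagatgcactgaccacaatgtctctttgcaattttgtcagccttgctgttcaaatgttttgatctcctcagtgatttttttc

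Next are the 2 strongest with a Runx core and no Tcf/Lef core:
Wibg, chr10:128183300-128183500: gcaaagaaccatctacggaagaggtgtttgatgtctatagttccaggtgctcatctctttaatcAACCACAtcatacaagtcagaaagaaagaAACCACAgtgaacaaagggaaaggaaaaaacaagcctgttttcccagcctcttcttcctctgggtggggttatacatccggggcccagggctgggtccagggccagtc
Ly6c2, chr15:74947013-74947213: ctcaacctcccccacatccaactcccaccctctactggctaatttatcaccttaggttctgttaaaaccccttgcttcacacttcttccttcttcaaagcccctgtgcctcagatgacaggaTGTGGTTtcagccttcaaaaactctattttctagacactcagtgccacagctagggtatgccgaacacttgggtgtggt

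The Wibg window held 2 Runx cores, one of them centred 4 bp from the summit. A strong peak with an ETS core was this, near Map2k2, the gene of a MAP kinase kinase:
Map2k2, chr10:80590310-80590510: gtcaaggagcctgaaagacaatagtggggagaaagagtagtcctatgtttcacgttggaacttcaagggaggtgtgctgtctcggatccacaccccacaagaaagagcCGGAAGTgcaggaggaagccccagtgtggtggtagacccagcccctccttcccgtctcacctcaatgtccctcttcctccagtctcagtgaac

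In the Map2k2 window the ETS core lay 11 bp from the summit.

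The strongest intergenic peak within 10 kb of a start site was that of Fasl, the gene of the death ligand of cytotoxic lymphocytes (ENSMUSG00000000817.8, minus strand). It spanned 163708929 to 163709785 on chromosome 1, with a pileup of 874 WT fragments at the summit against a control level of 5.42 fragments. Its fold enrichment, the pileup plus 1 over the control level plus 1, was 136 (counting interval 127 to 146). The summit lay 9.04 kb from the nearest start and 1.45 kb past the end of the gene. A much lower peak, with a fold enrichment of 9.98, lay 0.171 kb upstream of that start.

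The peaks next in order were well below Fasl and above most others. 4933403G14Rik, of no function known here, had a fold enrichment of 84.9 (interval 77.9 to 92.3) 2.39 kb upstream of its start. Wibg, which encodes a factor that takes part in exon junction complex recycling, had 75.9 (69.3 to 82.9) 1.535 kb upstream. Ly6c2, which encodes the surface glycoprotein Ly6C of memory CD8+ T cells and monocytes, had 65.7 (59.6 to 72.3) 4.999 kb upstream. The intervals of Fasl and 4933403G14Rik did not overlap, whereas those of neighbours from 4933403G14Rik downward did. All intervals cover counting error in the WT library only.

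The peaks ranked 5 to 25 ran from a fold enrichment of 56.2 down to 39.0. Some lay near genes with known roles in T cells: Vav1, the exchange factor downstream of the T cell receptor (46.6), Cdkn1a, the cell cycle inhibitor p21 (45.0), and Ccr8, a chemokine receptor (43.9). Others lay near genes best known elsewhere, such as Xdh, a purine-degrading enzyme (52.2), Hamp, the iron hormone hepcidin (44.2), F12, a clotting factor (41.3), and Olfr524, an olfactory receptor (49.2). The Olfr524 and Cd163l1 peaks stood in the same stretch of chromosome 7, on either side of the midpoint between the genes. The other names were Tmem50a (55.9), Tmc8 (49.5), Vps37b of the ESCRT-I complex (48.3), Btbd2 (45.5), B230120H23Rik (45.5), Ccdc142 (42.5), the mitochondrial iron importer Slc25a37 (41.2), the small GTPase Arl4c (41.1), the RNA-binding protein Zc3h12d (40.8), Gm11077 (40.5), the class Ib MHC gene H2-Q10 (40.3), Myl6b (39.9) and the progestin receptor Paqr7 (39.0). Of the 25, 22 lay upstream of the gene, 5 held the Tcf/Lef core and 10 held a Runx core, and the nearest gene had a high-confidence peak at its own promoter for 12.

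**Figure D1:**
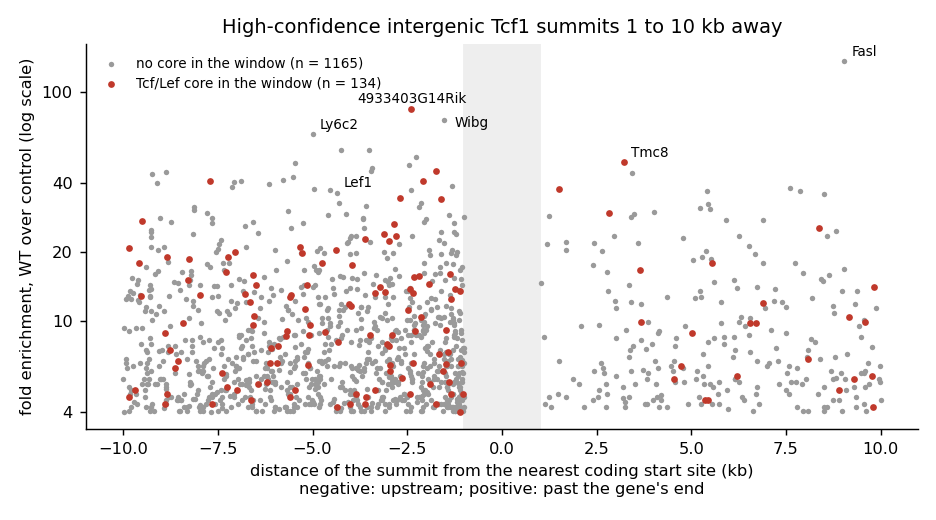
Fold enrichment (log scale) of the 1299 high-confidence intergenic peaks against the distance of the summit from the nearest coding start site in kb, negative upstream and positive past the gene's end. Points are peaks, red where the Tcf/Lef core lies within 100 bp of the summit (134) and grey where it does not (1165), and the band marks the 1 kb promoter window. Most peaks lie upstream, strong peaks occur at every distance, and the highest point is Fasl at 136.

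The 1299 peaks had a median fold enrichment of 7.01 (95% interval of the median 6.70 to 7.32), and the middle 50% ranged from 5.14 to 12.02. The median pileup was 45 fragments (33 to 79.5) and the median width 458 bp (326.5 to 643.5). Of the deposited peaks of this group 84.8% (Wilson 95% interval 83.0 to 86.6) were high-confidence, against 86.2% of all deposited peaks on the numbered chromosomes. All 232 that were not fell under the fold minimum, and 172 of them were within 1 Poisson SD of it, as were 277 of those above it. The control level was at its genome-wide floor of 5.42 fragments at 1129 of the 1299, so fold enrichment there followed the WT pileup alone.

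A fold enrichment of 10 or more was reached by 415 peaks (31.9%), against 27.6% of all high-confidence peaks on the numbered chromosomes. That share was 11.0 percentage points above the share of promoter peaks (20.9%; Newcombe 95% interval of the difference 8.39 to 13.8; two-sided Fisher's exact test, Benjamini-Hochberg adjusted over 16 comparisons, p = 1.03e-16). Against gene-body peaks (31.7%) the difference was 0.25 points (interval -2.49 to 3.08, Fisher's exact test, adjusted p = 0.948), and against intergenic peaks 10 to 50 kb away (32.8%) it was -0.83 points (-4.003 to 2.38, adjusted p = 0.838). In windows of under 50% GC, a split made after the data were seen, the difference from promoter peaks did not pass the exact test (33.6% against 29.3%, 4.23 points, -0.28 to 8.80, adjusted p = 0.216). In windows of 50% GC or more it passed the exact test (30.2% against 19.6%, 10.6 points, 6.97 to 14.4, adjusted p = 1.36e-08). These tests treat peaks of 1 list as independent.

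Exceptional members were few. The largest control levels among high-confidence peaks were 32.8 fragments near Cerk, the ceramide kinase gene (fold enrichment 4.65), 20.7 near Cd209a, a dendritic cell lectin gene (7.69), and 16.7 near the class Ib gene H2-Q6 (20.5). The widest peaks were 2341 bp near Pias4, which encodes a SUMO ligase (24.6), 2336 bp near Stim1, which encodes the calcium sensor of the endoplasmic reticulum (17.9), and 1940 bp near Dhx40 (15.9). Fasl, 4933403G14Rik and Wibg had the largest pileups as well as the largest fold enrichments. Of the 1299 intervals, 28 extended into a gene and 90 reached within 1 kb of a start site, although their summits did not.

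At the 1 kb limit, the nearest peaks that belonged to the group were Racgap1 at 1003 bp (fold enrichment 7.63) and Ccdc114 at 1005 bp (28.7), and the nearest that counted as promoter peaks were Stard4 at 999 bp (4.05) and Dnajc11 at 987 bp (7.32). At the 10 kb limit, the last peaks of the group were Manba at 9996 bp (4.52) and Mppe1 at 9993 bp (5.61), and the first beyond it were Tff3 at 10004 bp (11.1) and Cln6 at 10014 bp (8.69).

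The summits of this group lay a median of 4841 bp from the nearest coding start (interquartile range 2673.5 to 7241.5). Of the 1299, 1042 (80.2%, interval 78.0 to 82.3) were upstream of the nearest gene and 257 were past its end. For 154 of the 257 (59.9%) the nearest start was not the outermost start of the gene but that of another annotated transcript, often one near the gene's 3′ end. The nearest start was not the outermost for the peaks named for Fasl, Cd6, Tox, Satb1 and Adamtsl4, which lay 0.197 to 7.01 kb past the gene's end. That of Fasl was not near the 3′ end, since it lay 9.04 kb from the summit and the gene's end only 1.45 kb. For 243 peaks (18.7%) the start of another coding gene also lay within 10 kb, so the nearest gene is a label of position and not of a target.

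Intergenic sequence 1 to 10 kb from a coding start covered 151 Mb, or 6.31% of the autosomes, and held 8.59 high-confidence summits per Mb (Poisson 95% interval 8.13 to 9.07). The rest of intergenic sequence held 3.15 per Mb (3.05 to 3.25), a ratio of 2.73 (exact conditional 95% interval 2.56 to 2.91). Against all other autosomal sequence, promoters and gene bodies included, the ratio was 1.10 (1.04 to 1.17), and the autosomes as a whole held 7.84 per Mb. Gene bodies held 6.70 per Mb and promoters 74.3. Most of the rest lay over 50 kb away, with 1.81 per Mb, and the zones at 10 to 20 kb and 20 to 50 kb held 7.41 (6.94 to 7.91) and 6.23 (5.90 to 6.57).

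Upstream of genes, the density was 13.2 per Mb (11.5 to 15.2) at 1 to 2 kb, 9.67 (8.14 to 11.4) at 2 to 3 kb, 8.44 (7.38 to 9.61) at 3 to 5 kb and 8.25 (7.52 to 9.03) at 5 to 10 kb. Past the gene's end it was 5.51 (3.01 to 9.25), 6.61 (4.14 to 10.004), 7.17 (5.46 to 9.25) and 6.99 (5.96 to 8.15) at the same distances. The excess near the start was thus seen upstream, while past the end the intervals of all 4 zones overlapped. The zone at 1 to 2 kb past the end held only 14 summits in 2.54 Mb. A site so placed needs a gene shorter than 2 kb or an annotated start near the gene's end. The sides therefore differ in the genes they cover, which was not taken into account. Over the whole zone the upstream density was 1.33 times that past the end (1.16 to 1.53). Mappability, which differs between sequences, was not taken into account.

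**Figure D2:**
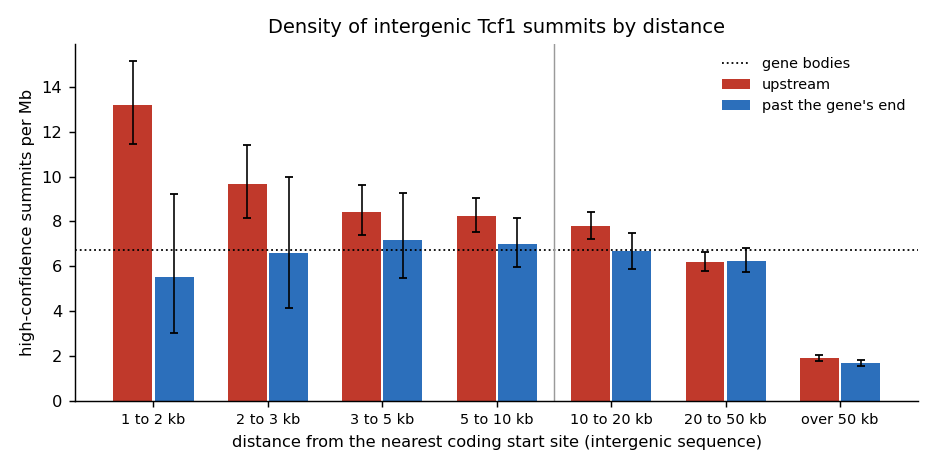
High-confidence Tcf1 summits per Mb of non-N intergenic sequence by distance from the nearest coding start site, upstream (red) and past the gene's end (blue), with Poisson 95% intervals. The grey line marks 10 kb and the dotted line the density in gene bodies (6.70 per Mb). Upstream density falls from 13.2 per Mb at 1 to 2 kb to 8.25 at 5 to 10 kb, and both sides drop below 2 per Mb over 50 kb away.

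The Tcf/Lef core was present at 134 of the 1299 peaks (10.3%, interval 8.78 to 12.1), and 8 of these held 2 copies. Windows of the same size 2 kb to each side held it at 2.73%, and the core with its letters reversed (GAAACTA) was present at 2.54% of summits. The core was close to the summit, at a median of 16.5 bp, with 63.4% of the nearest copies (55.01 to 71.1) within 25 bp, where an even spread over the window would give 25.4%. The Runx core was present at 18.9% (16.9 to 21.2; flanks 4.77%) and the ETS core at 3.46% (2.60 to 4.60; flanks 0.54%). With letters reversed they were present at 2.93% of summits for Runx and 6.24% for ETS, so the ETS core did not exceed that background. The nearest Runx core lay a median of 30.5 bp from the summit and the nearest ETS core 32 bp. None of the 3 cores was found at 905 peaks (69.7%), 1 of them at 363 and 2 at 31.

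Against promoter peaks the group carried more Tcf/Lef and Runx cores and fewer ETS cores. By Fisher's exact test the Tcf/Lef share was 5.28 points higher (3.66 to 7.12, adjusted p = 1.37e-11), the Runx share 12.8 points higher (10.7 to 15.1, adjusted p = 1.52e-43) and the ETS share 9.83 points lower, at 3.46% against 13.3% (adjusted p = 3.80e-29). Promoter windows were richer in G and C, with a median of 62.2% against 49.8%. In windows of under 50% GC the Tcf/Lef core was present at 11.7% of the group and 12.1% of promoter peaks, a difference of -0.37 points (-3.47 to 2.87). The Runx difference did not pass the exact test there (23.4% against 19.5%, 3.88 points, -0.11 to 7.95, adjusted p = 0.216), and the ETS share was lower by a smaller difference (1.78% against 5.13%, -3.35 points, -5.08 to -1.58, adjusted p = 0.00544). In windows of 50% GC or more the Tcf/Lef core was present at 8.83% and 3.94%, a difference of 4.88 points (2.84 to 7.41), and both other differences passed the exact test, at 10.1 points for Runx (14.1% against 4.02%, adjusted p = 7.15e-20) and -9.26 points for ETS (5.30% against 14.6%, adjusted p = 1.60e-11).

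Against gene-body peaks the Tcf/Lef share was 3.76 points lower (10.3% against 14.1%; interval -5.53 to -1.79; Fisher's exact test, adjusted p = 0.000765) and the Runx share 2.97 points lower (18.9% against 21.9%; adjusted p = 0.0395). The Tcf/Lef difference did not pass the exact test at a fold enrichment of 8 or more (adjusted p = 0.143) or in windows of 50% GC or more (0.287). The Runx difference did not pass the exact test within 50 bp of the summit (adjusted p = 0.111), at a fold enrichment of 8 or more (0.0966), or in windows of under 50% GC (0.866) or of 50% GC or more (0.199). Against intergenic peaks 10 to 50 kb away the Tcf/Lef share was 3.01 points lower (13.3% there; interval -5.14 to -0.79; Fisher's exact test, adjusted p = 0.0240). This difference did not pass the exact test within 50 bp of the summit (adjusted p = 0.163), at a fold enrichment of 8 or more (0.688), with starts of coding transcripts only (0.0520) or in windows of 50% GC or more (0.956), and over all alternatives the adjusted p ran from 0.00497 to 0.956. The differences from the 10 to 50 kb peaks in the Runx core (-1.77 points, -4.44 to 0.99) and the ETS core (0.83 points, -0.32 to 2.11) did not pass the exact test (adjusted p = 0.324 and 0.287). For the reversed Tcf/Lef core, the differences from the 3 other classes ranged from -0.19 to 0.66 points, and none passed.

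Within the group the Tcf/Lef share was 9.17% at 1 to 2 kb (6.02 to 13.7), 12.8% at 2 to 3 kb (8.53 to 18.8), 8.68% at 3 to 5 kb (5.95 to 12.5) and 10.8% at 5 to 10 kb (8.62 to 13.5), with no order beyond the intervals. The Runx share was 14.2% (10.2 to 19.5), 17.7% (12.6 to 24.2), 19.1% (14.98 to 24.03) and 20.8% (17.8 to 24.2) over the same zones, and here too neighbouring intervals overlapped. Upstream peaks and peaks past the gene's end held the Tcf/Lef core at 10.6% (8.83 to 12.6) and 9.34% (6.36 to 13.5).

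**Figure D3:**
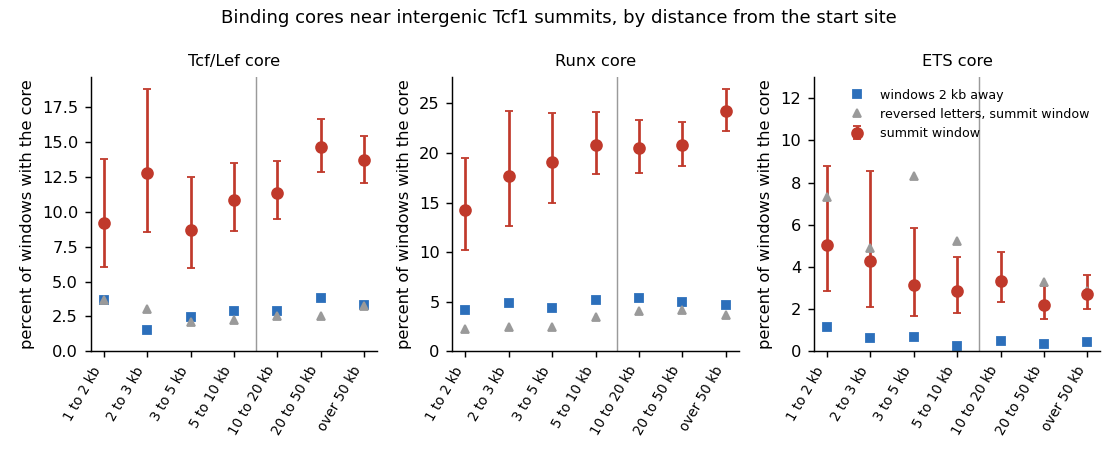
Percent of high-confidence intergenic summits with the Tcf/Lef, Runx or ETS core within 100 bp (red, with Wilson 95% intervals), by distance from the nearest coding start site. Blue squares are windows 2 kb to each side, grey triangles the reversed letters at the summits, and the grey line marks 10 kb. The Tcf/Lef and Runx cores stand above both backgrounds at all distances, whereas the reversed ETS letters are at least as frequent as the ETS core, with 2 of their triangles hidden behind circles beyond 10 kb.

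Stronger peaks held the Tcf/Lef core more often. It was present at 7.01% of the 499 peaks with a fold enrichment of 4 to 6 (5.09 to 9.60), 9.87% of the 385 at 6 to 10 (7.28 to 13.3), 14.4% of the 285 at 10 to 20 (10.8 to 18.9) and 15.4% of the 130 at 20 or more (10.2 to 22.6). The Runx core was present at 17.6%, 18.2%, 17.5% and 29.2% (22.1 to 37.6) of the same ranges. At 10 to 50 kb the Tcf/Lef core went from 12.4% (10.3 to 14.8) in the weakest range to 17.7% (13.3 to 23.1) in the strongest, and the intervals of the classes were separate in the weakest range only. These shares are descriptions, and the trend was not tested.

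**Figure D4:**
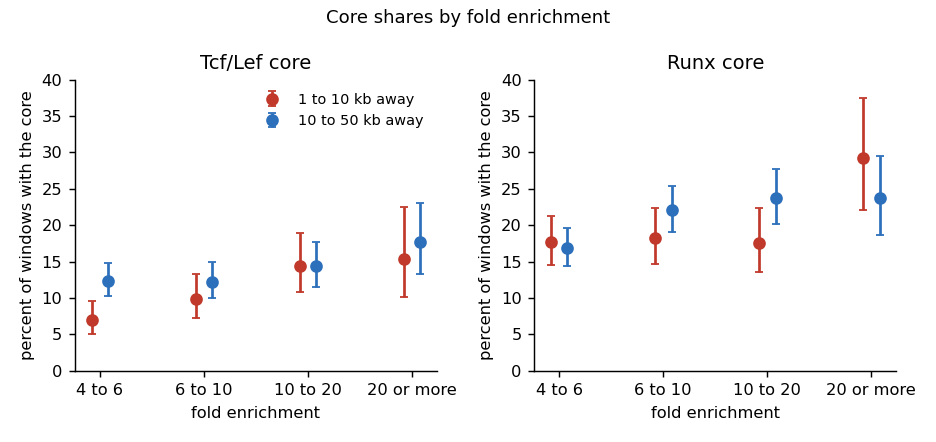
Percent of high-confidence intergenic summits with the Tcf/Lef core (left) or the Runx core (right) within 100 bp, by fold enrichment, for peaks 1 to 10 kb (red) and 10 to 50 kb (blue) from a coding start site, with Wilson 95% intervals. Between the weakest and strongest ranges the Tcf/Lef share goes from 7.01% to 15.4% in the nearer group.

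All runs of 7 bases within 50 bp of the summits were put in order of how far their share exceeded that in the flanks. The Runx core came 1st, at 13.1% of the 1299 peaks against 2.23% of flanks, and the Tcf/Lef core ranked 9th (8.85% against 1.08%). TTCAAAG, a Tcf/Lef core with a T in first place, ranked 6th, and AGGAAGT, an ETS core without the CpG, ranked 7th, whereas CGGAAGT itself ranked 115th. These variants were chosen after the ranking was seen. Within 100 bp TTCAAAG was present at 13.6% of the group (11.9 to 15.6; flanks 4.58%) and AGGAAGT at 18.9% (16.8 to 21.1; flanks 5.23%). The Tcf/Lef core or its variant was present at 22.9% (20.7 to 25.3) against 25.2% at 10 to 50 kb, a difference of -2.28 points (-5.16 to 0.66), and 52.0% of the group held at least 1 of the 5 cores.

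A small set of the group resembled promoters in sequence. In 72 peaks (5.54%, 4.42 to 6.92) the 601 bp around the summit had at least 55% GC and a CpG ratio of observed to expected of at least 0.65, against 61.7% of promoter peaks and 3.58% (2.88 to 4.43) at 10 to 50 kb. The ETS core was present at 8 of the 72 (11.1%, 5.74 to 20.4), the Tcf/Lef core at 3 and the Runx core at 1. Without these peaks the Tcf/Lef share was 10.7% and the ETS share 3.02%. The median fold enrichment of the CpG-rich peaks was 6.78 (6.39 to 7.48), close to the 7.01 of the others.

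Within 10 kb of the summit, 922 of the 1299 (71.0%, 68.5 to 73.4) had another high-confidence peak, against 48.3% (46.2 to 50.3) of the intergenic peaks 10 to 50 kb away. Of the group, 674 (51.9%) had a promoter peak within that distance and 380 (29.3%) another peak of the group. The rule places every peak of the group within 10 kb of a start, so these shares follow in part from it and the difference was not tested. The nearest coding gene had a high-confidence peak within 1 kb of one of its own starts for 698 (53.7%), against 54.0% for peaks 10 to 50 kb away, a difference of -0.29 points (-3.70 to 3.11, Fisher's exact test, adjusted p = 0.948). Of all 21418 autosomal coding genes, 33.6% had such a promoter peak. Seen from the genes, 576 of the 7191 with a promoter peak were nearest to a peak of the group (8.01%, 7.40 to 8.66) against 519 of the 14227 without one (3.65%, 3.35 to 3.97), a difference of 4.36 points (3.68 to 5.08). The amount of intergenic sequence around each gene was not taken into account.

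Peaks whose nearest gene had a bound promoter did not differ detectably in sequence from the rest. Their Tcf/Lef share was 10.03% (8.01 to 12.5) against 10.6% (8.43 to 13.4), a difference of -0.62 points (-4.01 to 2.69), and their Runx share 18.3% (15.6 to 21.4) against 19.6% (16.7 to 23.0). The median fold enrichments were 7.17 (6.70 to 7.66) and 6.86 (6.39 to 7.32), with overlapping intervals.

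The group was spread over 1095 genes, of which 927 had 1 peak, 137 had 2, 26 had 3 and 5 had 4. Tpst2, which encodes a tyrosylprotein sulfotransferase, had the strongest run of 4, all upstream, with fold enrichments of 14.4 at 5.22 kb, 11.1 at 3.56 kb, 34.6 at 2.69 kb and 13.9 at 1.24 kb. The nearest 2 of these held the Tcf/Lef core, and the promoter (11.8) was bound as well. Around Cdkn1b, the gene of the cell cycle inhibitor p27, 2 peaks lay upstream (5.45 and 5.45) and 2 past the end (4.83 and 7.48), all below the promoter peak (10.3). Ier2, an immediate early gene, had 1 upstream (5.76) and 3 past its end (5.30 to 7.48), and Ap1m2, which encodes an adaptor subunit of clathrin coats, had 4 upstream (4.21 to 6.86) with no peak at the start.

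The 4 peaks named for Adamtsl4 (4.36 to 16.4) lay past its end in the stretch of chromosome 3 that separates it from Mcl1, the gene of an anti-apoptotic Bcl-2 family protein. They were 10.5 to 17.3 kb from the Mcl1 start, and the peak named for Mcl1 itself (11.5) was 7.51 kb from it. Along the 5 peaks the nearest start changes from that of one gene to the other.

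**Figure D5:**
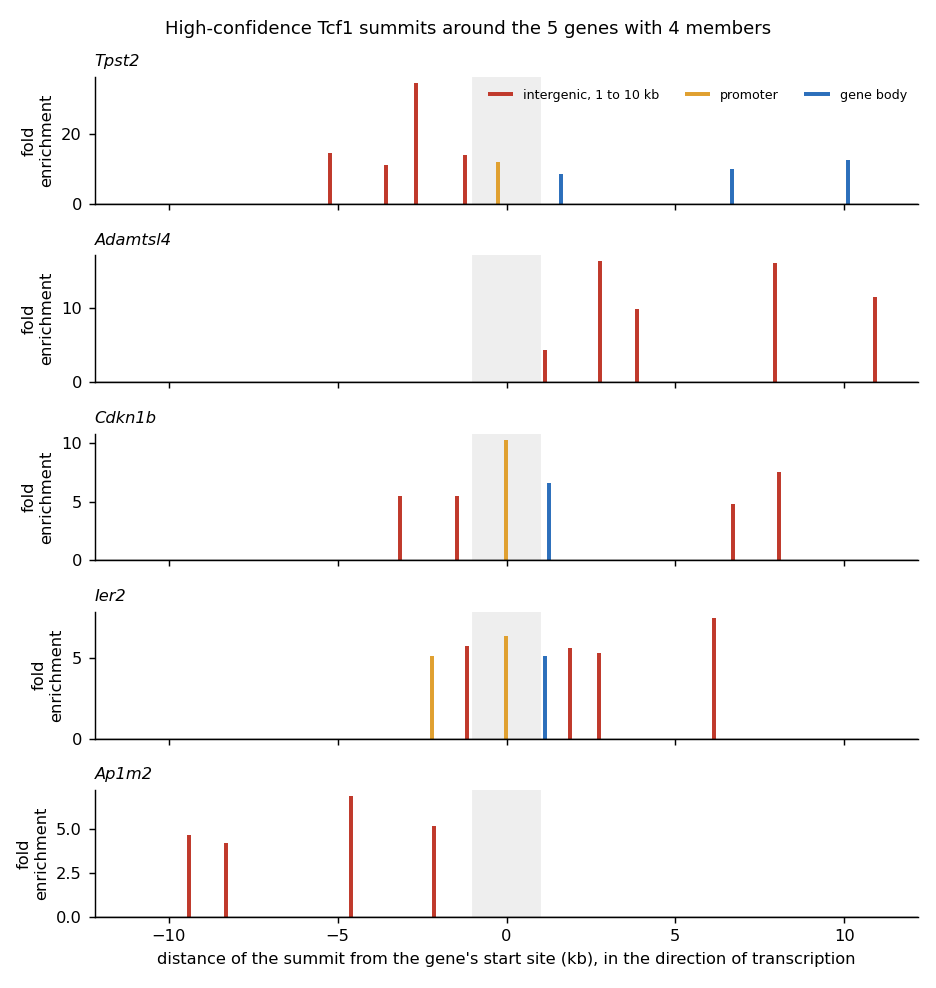
Fold enrichment of every high-confidence Tcf1 summit within 12 kb of the start site nearest to the peaks of 5 genes, against distance from that start in kb in the direction of transcription. Red stems are intergenic peaks 1 to 10 kb from a coding start, yellow stems promoter peaks (of any annotated start) and blue stems gene-body peaks, and the band marks the 1 kb promoter window. Tpst2 has the tallest stem, at 34.6, and in the Adamtsl4 panel the stem farthest to the right belongs to Mcl1.

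In all, 12 gene lists were read for how many of their genes were nearest to a high-confidence peak of the group, beside 5.15% of all 21281 coding gene names. The lists describe the genes around these peaks and were not tested for enrichment, and genes differ in how much intergenic sequence surrounds them. Housekeeping genes, taken as a comparison, had 5 of 23 (21.7%), so a share well above 5.15% was not peculiar to T cell genes. Among them was the actin gene Actb (9.19).

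Among genes of T cell identity and the naïve state, 6 of 21 were nearest to at least 1 peak. Lef1, the relative of Tcf1, had the strongest, 4.36 kb upstream, where a pileup of 474 stood against a raised control level and the fold enrichment was 36.4 (33.2 to 39.9). The next were at Tox, a regulator of exhausted T cells (12.3), and Satb1, a chromatin organizer (11.4). None of the 8 peaks of this list held the Tcf/Lef core, which 10.3% of the whole group held. Of the T cell receptor and signalling genes, 8 of 25 were nearest to a peak, led by the surface receptors Cd6 (32.4) and Cd2 (20.3) and the proximal kinase gene Lck (9.83), and none of the 12 peaks held the core.

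Homing and cytokine receptors had the most, 14 of 30 genes (46.7%, 30.2 to 63.9) with 20 peaks, 4 of them with the core. Behind Ccr8 (43.9) came the interleukin-7 receptor Il7r, 3.67 kb upstream (27.9), and the follicular homing receptor Cxcr5 (26.02). Effector and cytotoxic genes had 7 of 26, with Fasl followed by the granule protein gene Nkg7 (20.6) and the inhibitory receptor gene Klrg1 (16.5). Inhibitory and regulatory T cell genes had 7 of 20, led by Folr4, the folate receptor 4 of regulatory T cells (29.3), the cytokine signalling inhibitor Socs3 (14.3) and the checkpoint receptor Ctla4 (11.7), where the core was present.

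Of the survival and cell cycle genes, 7 of 23 were nearest to 12 peaks, with Cdkn1a (45.0), the antiproliferative gene Btg1 (20.7) and Mcl1 (11.5) at the top. Genes of AP-1, NF-kappaB and NFAT had 9 of 28, led by the activation-induced nuclear receptors Nr4a1 (16.5) and Nr4a3 (14.2 and 13.6). The Wnt pathway and Tcf cofactor genes had 3 of 30, with the pathway's feedback gene Axin2 9.28 kb upstream (24.5), Tle6 of the Tle family (5.61) and the coactivator Bcl9l (5.61). Interferon response and antigen presentation genes had 2 of 24, among them the interferon regulatory factor gene Irf1 (5.42).

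Of the lists of other cell types, B cell genes had 3 of 19, among them Irf4 (11.4) and Bcl6 (11.2), which T cells also use. Myeloid and dendritic genes had 2 of 23, Ly6c2 (65.7 and 6.08), which CD8+ T cells also express, and Sfpi1, the gene of PU.1 (4.05). Promoter peaks were present at 4 of 19 and 1 of 23 genes of these lists, against 18 of 21 and 24 of 25 for the T cell identity and T cell receptor lists. Housekeeping genes had them at 20 of 23, effector genes at 15 of 26, inhibitory and regulatory T cell genes at 8 of 20, and all coding genes at 33.7%.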

How the data were processed

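ChIP-seq fragments were aligned by the authors to mm9 with Bowtie2 (version 2.2.5 per the labels), and MACS2 (2.1.1.20160309), given paired-end fragments and a p below 1e-05, called the peaks with 1 fragment kept per position. The deposited signal (pileup) is the count of WT fragments over the summit, the deposited fold enrichment is the ratio defined in the report, and the deposited −log10 p and −log10 q are the authors' Poisson p and its adjusted form. Peaks were called once on 1 WT against 1 control library, and summits are 1-based.

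For each peak, pileup plus 1 was divided by fold enrichment and 1 was subtracted to give the control level. It is the caller's local expectation and not a fragment count at the summit. Classes, distances and windows came from NCBIM37 (mm9) and GENCODE vM1: promoter (within 1 kb of any annotated start), gene body, and intergenic within 10 kb, 10 to 50 kb and over 50 kb. The densities used non-N bases. Shares were compared by two-sided Fisher's exact tests with Benjamini-Hochberg adjustment over 16 comparisons, and differences have Newcombe 95% intervals. Fragments without molecular identifiers are not independent molecules, so intervals cover counting error only.

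Named peaks are the 25 with the largest fold enrichment, the 3 largest of each gene list, the extremes of pileup, control level and width, genes with 4 peaks, and those beside the limits. Some items that this rule names are not reported here. Of 300 listed genes, 298 matched a coding gene, 4 by an older symbol from a RefSeq table. The rule, the lists and the tests were chosen with earlier results of these data known. Functions were tested on simulated data. Alternatives were other start site definitions, limits, windows, fold minimums and base compositions. Analyses used Python 3.11.15 with numpy 2.4.6, pandas 2.3.3, scipy 1.17.1 and pysam 0.24.0.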

Additional observations from a re-analysis of the deposited data

How the results depend on the processing

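Of 95 alternatives over 18 results, 66 kept the direction and the side of the threshold or the size of the value. The number of deposited peaks in the group was 779 with an upper distance of 5 kb and 2579 with 20 kb, and the number of high-confidence peaks was 557 with a fold minimum of 8. By construction the fold minimum also moved the medians: without one, the medians of fold enrichment, pileup and width were 6.23, 40 fragments and 420 bp, and with a minimum of 8 they were 13.1, 87 fragments and 633 bp. The Tcf/Lef difference from gene-body peaks did not pass the test at a fold minimum of 8 (-3.24 points) or in windows of 50% GC or more (-2.05). That from intergenic peaks 10 to 50 kb away did not pass within 50 bp (-1.84), at a fold minimum of 8 (-1.05), with coding transcripts only (-2.65) or in windows of 50% GC or more (-0.42). The Runx difference from gene-body peaks did not pass within 50 bp (-2.16), at a fold minimum of 8 (-4.26) or in windows of under 50% GC (-1.65) or of 50% or more (-3.13). In windows of under 50% GC the differences from promoter peaks in the Runx core (3.88) and in the share at a fold enrichment of 10 or more (4.23) did not pass either, the Tcf/Lef difference from promoter peaks turned to -0.37 and the ETS difference from peaks 10 to 50 kb away to -0.11. The share at a fold enrichment of 10 or more differed by 0.0295 points from that at 10 to 50 kb with coding transcripts only and by 0.86 in windows of 50% GC or more, and the share at 20 or more differed from that in gene bodies by -0.55. The share of nearest genes with a promoter peak differed from that at 10 to 50 kb by 0.12 points with any deposited peak, by 1.29 with a fold minimum of 8, and by 10.4 with a promoter of 2.5 kb, in which 306 peaks of the group counted as their own promoter peak. The GC alternatives, and all those for the Runx core against promoter and gene-body peaks, the ETS core against promoter peaks and strong peaks against promoter and gene-body peaks, were chosen after seeing the data. The cause of the other changes was not tested. Depth limits the call of 277 peaks within 1 Poisson SD of the fold minimum. No paired analysis was possible because each group has 1 library.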

Other observations

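The reversed ETS letters (TGAAGGC), searched as a background for the ETS core, were more frequent near these summits than in any other class. They were present at 6.24% of the 1299 high-confidence intergenic peaks 1 to 10 kb away (5.05 to 7.68), against 3.31% at 10 to 50 kb (2.64 to 4.13), 2.84% over 50 kb away (2.13 to 3.78), 4.32% in gene bodies (3.84 to 4.86) and 2.85% at promoters (2.49 to 3.25). The difference from the 10 to 50 kb peaks was 2.93 points (1.48 to 4.52), noticed in the data and given as a description. In the group the reversed letters were more frequent than the ETS core itself (3.46%). The core thus stood above the flanks (0.54%) and not above this second background.

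The Tcf/Lef and Runx cores were found together at 21 peaks of the group. Runx cores were present at 15.7% of the peaks with a Tcf/Lef core (10.5 to 22.8) and 19.3% of those without (17.1 to 21.7), a difference of -3.64 points (-9.34 to 3.78). At 10 to 50 kb the values were 12.8% (9.43 to 17.0) and 21.9% (20.1 to 23.8), a difference of -9.18 points (-13.0 to -4.55). Whether the classes differ in this was not tested.

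By chromosome, the group made up between 3.94% of the high-confidence peaks (2.57 to 6.01, chromosome 18) and 8.83% (7.38 to 10.5, chromosome 7). Runs of at least 7 CA units were present in 6.62% of the windows (5.39 to 8.10). No share for flanks or other classes stands beside it, so whether it is particular to the group was not tested.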
